A study of Mus musculus with 24 samples.

Results

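The macrophages compared here came from the peritoneal cavity, labelled p-Mac, and from the bone marrow, labelled bm-Mac. Arrays were chosen by their titles, PM for p-Mac and BMM for bm-Mac, which gave 3 arrays of each kind, 6 of the 24 in the series. All 18820 genes with a probeset that names them alone were compared. The series set microglia-like cells derived from mouse induced pluripotent stem cells beside primary cells, and both macrophage kinds were among the primary cells. Both came from adult C57BL/6NCr mice, the strain without the Cx3cr1 reporter allele. The 4 other myeloid groups used for reference were dendritic cells (DC, adult C57BL/6NCr), microglia of postnatal day 5 (neo-MG), microglia of adult mice (ad-MG) and microglia-like cells derived from stem cells (iPS-MG, age given as adult). The 3 microglial groups carried Cx3cr1gfp/+ on C57BL/6NCr, with gfp in place of 1 Cx3cr1 allele. Per the labels' protocols p-Mac and bm-Mac shared a DMEM/F12 medium with defined serum, and no growth factor is named for either. The labels do not state how the cells were purified, how long they were cultured or whether replicates were separate mice or cultures. The p-values therefore cover the spread among arrays within groups, pooled over all 24 arrays of the series, and that spread may be technical.

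Macrophages of the adult peritoneal cavity are mostly large resident cells whose identity depends on retinoic acid and on the zinc finger transcription factor Gata6. They take up dying cells, patrol the serous surfaces and respond to injury and to leakage of blood. Bone marrow macrophages are usually obtained by culture of marrow progenitors, which divide while they differentiate, and marrow also holds granulocytes, their precursors and megakaryocytes.

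Levels are the deposited log2 values, so a difference of 1 is 2-fold, and each array value below is given in the order of replicates 1 to 3, with bm-Mac first. Differences are p-Mac minus bm-Mac with the standard error after ±, which rests on the spread pooled over all 8 groups. It can be small beside the spread of 1 group, as in Cd209b, with an SD of 0.645 over the p-Mac arrays and a standard error of 0.17. A gene was called at a Benjamini-Hochberg adjusted p under 0.05 in limma, fitted to all 24 arrays, and an absolute difference of at least 1. That call was made for 1162 genes, 6.17% of those tested, of which 326 (1.73% of those tested) were higher and 836 (4.44%) lower in p-Mac. The large differences also leaned to bm-Mac, since 218 genes were lower in p-Mac by at least 2 and 75 were higher by as much. The 3 arrays of one kind lay wholly above the 3 of the other in 12355 genes (65.6%), a share so high that absence of overlap alone says little about a gene, and all 1162 called genes were among them. Across genes, which are not independent replicates, the root mean square log2 difference was 0.121 to 0.148 between bm-Mac arrays, 0.168 to 0.204 between p-Mac arrays and 0.568 to 0.623 between arrays of different kinds. The values of the p-Mac arrays were packed more closely, with an interquartile range over probesets of 2.80 to 2.92 against 3.10 to 3.16 in bm-Mac. The median difference was 0.18 in the 4705 genes with the lowest levels and -0.16 in the 4705 with the highest, and 0.10 over all genes. A second quantile normalization, which gives every array the same distribution, called 402 genes higher and 759 lower in p-Mac and brought the median over all genes to 0.05. No detection calls were used, so where the mean of a group is under 7 the fold is that of the deposited values and may be a lower bound.

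**Figure D1:**
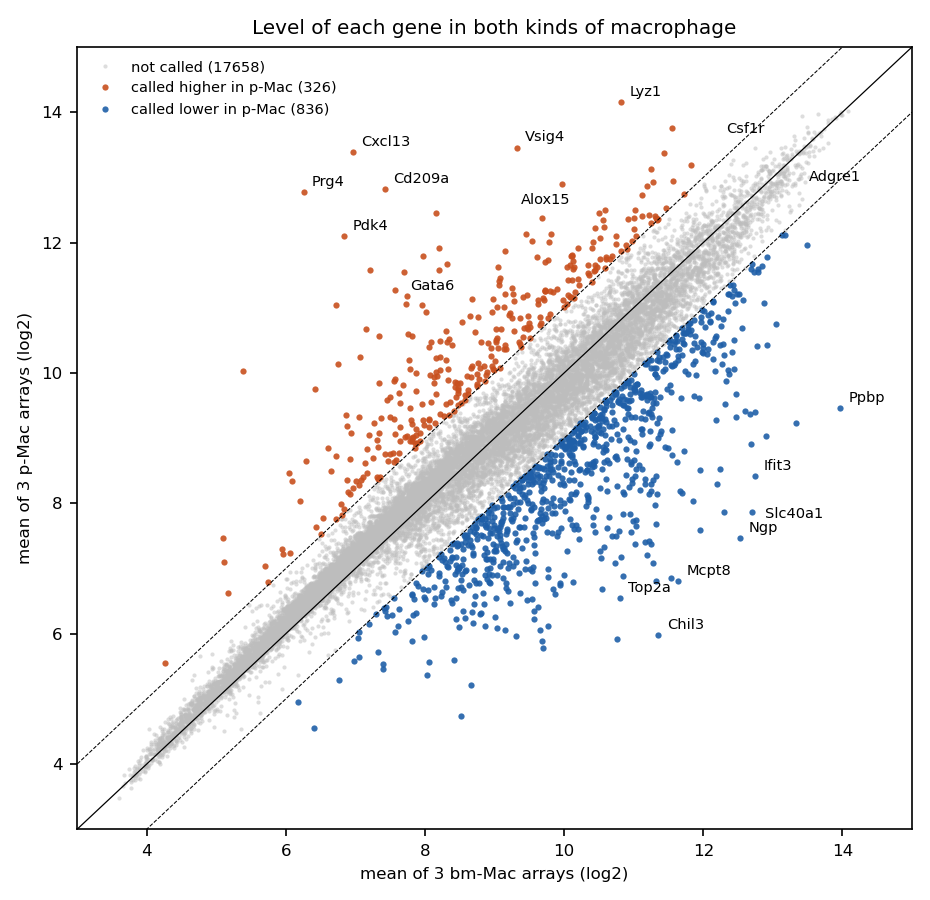
Mean log2 level of each of the 18820 genes over the 3 bm-Mac arrays (horizontal axis) and the 3 p-Mac arrays (vertical axis). The solid line marks equal levels and the dashed lines a difference of 1 either way. Orange points are the 326 genes called higher in p-Mac and blue points the 836 called lower, and Csf1r and Adgre1 lie close to the line of equal levels.

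Of 28 pan-myeloid genes 5 were called, beside 6.17% of all genes, while the arrays of both kinds overlapped in Csf1r and Adgre1. In p-Mac 3 were higher and 2 lower, with a median difference of 0.08 beside 0.10 over all genes. Csf1r, the receptor for the macrophage growth factor M-CSF, was at 13.37, 13.39 and 13.29 in bm-Mac and 13.39, 13.34 and 13.37 in p-Mac. Adgre1, which encodes a classical surface antigen of macrophages, was at 13.29, 13.24 and 13.29 against 13.36, 13.35 and 13.27. The differences were 0.02 ± 0.08 and 0.05 ± 0.12. Spi1, the lineage-determining factor PU.1, differed by 0.13 ± 0.12, the integrin Itgam by 0.26 ± 0.10 and the leukocyte phosphatase Ptprc by -0.23 ± 0.08, none of which was called. The lower genes were Fcgr1, the high-affinity IgG receptor, at -2.13 ± 0.10, and the actin regulator Coro1a at -1.27 ± 0.11. The higher genes were the sialic acid-binding receptor Cd33 at 1.48 ± 0.08, the G-CSF receptor Csf3r at 1.37 ± 0.10 and the factor Cebpa at 1.01 ± 0.08. Cebpa lay on the threshold, and without bm-Mac replicate 2, without bm-Mac replicate 3, without p-Mac replicate 1 or without p-Mac replicate 2 its difference was 0.96, 0.97, 0.94 or 0.98, below it. The sex-linked transcripts Xist, Eif2s3y, Kdm5d and Uty differed by -0.19, -0.09, 0.33 and 0.29, and none was called.

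Genes listed as markers of large peritoneal macrophages were mostly higher on the p-Mac arrays. The list was chosen with earlier results of these data known, so its counts are not independent evidence of what the cells were. Of 29 measured, 23 were called higher in p-Mac, where 1.73% of all genes were, and the other 6 were not called. Their median difference was 2.05, and their mean level was 8.89 to 8.94 over the bm-Mac arrays and 11.25 to 11.30 over the p-Mac arrays. Gata6 itself was at 7.72, 7.72 and 7.64 in bm-Mac and 11.49, 11.61 and 11.56 in p-Mac. The p-Mac arrays were all higher, by 3.86 ± 0.07 (adjusted p = 4.91e-24 in limma with Benjamini-Hochberg adjustment). Dendritic cells also had a high Gata6 level, with a mean of 10.10, while neo-MG were at 7.59 and ad-MG at 8.48.

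Prg4, the secreted lubricating proteoglycan of serous and joint fluid, had the highest difference of all genes in the deposited values. Its levels were 6.26, 6.31 and 6.19 in bm-Mac and 12.88, 12.82 and 12.61 in p-Mac, a difference of 6.52 ± 0.09 or 91.6-fold (adjusted p = 2.26e-25, limma with Benjamini-Hochberg adjustment). In the 4 other myeloid groups its mean stayed between 6.07 and 6.26, as low as in bm-Mac, so the p-Mac arrays stood alone. Cxcl13, the chemokine that draws B cells through Cxcr5, was at 6.87, 7.16 and 6.83 against 13.38, 13.39 and 13.38, 85.9-fold higher in p-Mac. The adult microglia were next for Cxcl13, at a mean of 9.92. Vsig4, the complement receptor that binds C3 fragments, was at 9.45, 9.22 and 9.29 in bm-Mac and 13.502, 13.41 and 13.46 in p-Mac. The p-Mac arrays were all higher, with a difference of 4.14 ± 0.11, and every other myeloid group had a lower mean than bm-Mac for this gene. Tgfb2, a secreted TGF-beta, was at 7.12, 7.23 and 7.27 against 11.59, 11.55 and 11.59, which is 20.7-fold higher in p-Mac. Arg1, the enzyme that splits arginine into ornithine and urea, was at 8.22, 8.04 and 8.22 against 12.41, 12.46 and 12.48. All p-Mac arrays were higher for Tgfb2 and Arg1, and for Arg1 the dendritic cells were higher still, at 13.15.

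Other members of the same list had smaller differences. Lyz1, a lysozyme, was at 10.88, 10.69 and 10.89 in bm-Mac and 14.14, 14.16 and 14.14 in p-Mac, although its close copy Lyz2 differed by only 0.18. Probes of near-identical copies can pick up both transcripts, so the split between Lyz1 and Lyz2 is uncertain. Serpinb2, an inhibitor of plasminogen activators, differed by 3.33 ± 0.08, and Alox15, the 12/15-lipoxygenase, by 2.69 ± 0.08. Marco, a scavenger receptor for bacteria, differed by 2.44 ± 0.09 and Fn1, fibronectin, by 2.20 ± 0.05. Timd4, the phosphatidylserine receptor of resident macrophages, was at 7.76, 7.85 and 7.80 against 9.21, 9.31 and 9.33, higher in all p-Mac arrays by 1.48 ± 0.07. The members not called were Thbs1 at 0.31 ± 0.05, Cd93 at 0.41 ± 0.09, Apoc1 at 0.58 ± 0.11, Icam2 at 0.58 ± 0.07, Selp at 0.65 ± 0.09 and Laptm4b at 0.81 ± 0.08. Icam2, an adhesion molecule used to sort large peritoneal macrophages, was at 8.41, 8.34 and 8.25 in bm-Mac and 8.95, 8.90 and 8.87 in p-Mac, without overlap but under 2-fold.

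**Figure D2:**
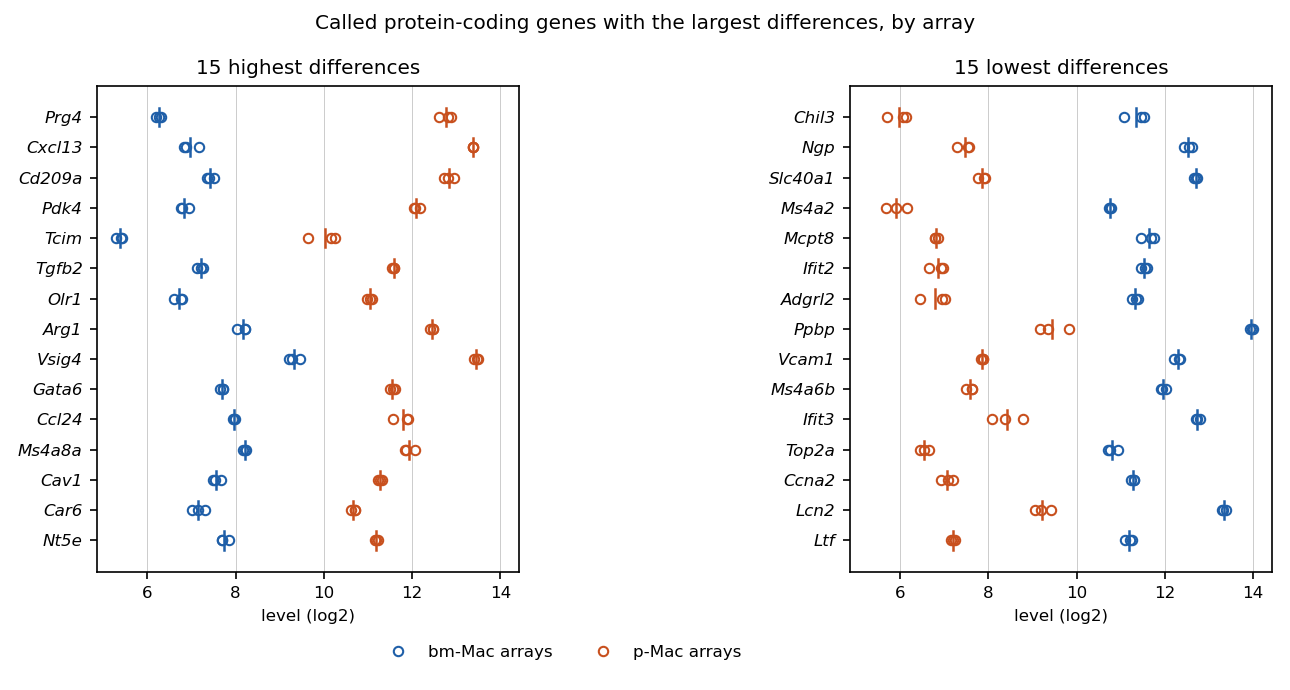
Log2 level on each array (circles, blue bm-Mac and orange p-Mac) with the group mean (vertical bar) for called protein-coding genes, the 15 furthest above bm-Mac on the left and the 15 furthest below on the right. The 30 genes were picked from those whose arrays do not overlap, so the 3 circles of one kind are separate from the 3 of the other by choice. Prg4 and Cxcl13 head the left panel and Chil3 and Ngp the right.

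Genes of small peritoneal and monocyte-derived macrophages were called in both directions. Of 17 measured, 5 were higher and 8 lower in p-Mac, beside 1.73% and 4.44% of all genes. Their median was -0.52, which a second quantile normalization brought to -0.28. Cd209a, a lectin related to human DC-SIGN, was at 7.41, 7.51 and 7.36 in bm-Mac and 12.82, 12.72 and 12.94 in p-Mac. Ccl24, an eosinophil-attracting chemokine, was at 7.97, 7.99 and 7.95 against 11.91, 11.56 and 11.89. Retnla, a secreted product of alternatively activated macrophages, was at 6.02, 5.99 and 6.11 against 8.44, 8.40 and 8.54. These 3 genes were higher on every p-Mac array, by 5.399 ± 0.09, 3.82 ± 0.09 and 2.42 ± 0.09. On the other side, Chil3, the chitinase-like protein Ym1, was at 11.08, 11.45 and 11.53 in bm-Mac and 6.08, 6.13 and 5.71 in p-Mac. Ccr2, the receptor that lets monocytes leave the marrow, was at 11.29, 11.16 and 11.45 against 7.995, 8.04 and 7.87. Plac8 was at 9.58, 9.53 and 9.62 against 6.75, 6.82 and 6.76. All 3 were lower on every p-Mac array, Chil3 by 41.6-fold, and the mannose receptor Mrc1 and the lectin Clec10a were also lower, at -2.36 ± 0.10 and -2.67 ± 0.10. Chil3 was highest in dendritic cells, at 13.45. The list of alternative activation and arginine genes was likewise split, with 5 of 17 higher (among them Arg1, Ccl24 and Retnla) and 5 lower (among them Chil3, Clec10a and Mgl2, a lectin, at -2.54 ± 0.08).

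Transcripts of granulocytes and platelets were high on the bm-Mac arrays. Of 19 neutrophil and granule precursor genes, 14 were lower in p-Mac, where 4.44% of all genes were, and 1 was higher, with a median of -3.22. Their mean level was 10.43 to 10.46 in bm-Mac, 7.98 to 8.04 in p-Mac and 7.28 to 7.36 in neo-MG. Ngp, a granule protein of developing neutrophils, was at 12.54, 12.44 and 12.62 in bm-Mac and 7.58, 7.53 and 7.29 in p-Mac. Ltf, lactoferrin, was at 11.09, 11.20 and 11.27 against 7.16, 7.195 and 7.25. Mpo, myeloperoxidase of early granules, was at 11.87, 11.88 and 11.82 against 8.0, 7.93 and 8.17. The bm-Mac arrays were all higher for Ngp, Ltf and Mpo, by 33.6-fold, 15.8-fold and 14.1-fold. S100a9, a calcium-binding protein abundant in neutrophils, differed by -3.80 ± 0.08, and Cxcr2, the receptor that guides them, by -3.45 ± 0.10. The member that was higher in p-Mac was Csf3r, while Mmp8, the neutrophil collagenase, differed by 0.24 ± 0.16 and was not called.

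Basophil, eosinophil and megakaryocyte genes were also mostly lower in p-Mac where they were called. Over all genes 4.44% were called lower and 1.73% higher. Ms4a2, the beta chain of the high-affinity IgE receptor, was at 10.73, 10.77 and 10.76 in bm-Mac and 5.91, 5.69 and 6.16 in p-Mac. Mcpt8, a basophil protease, was at 11.68, 11.75 and 11.47 against 6.86, 6.79 and 6.78. Prss34, another basophil protease, was at 11.16, 11.62 and 10.96 against 7.196, 7.35 and 7.57. Every bm-Mac array was higher for these 3 genes, and the differences were -4.84 ± 0.08, -4.83 ± 0.10 and -3.87 ± 0.14. Of 15 mast cell and basophil genes, 7 were lower in p-Mac and 1, the mast cell receptor Mrgprb1 at 1.46 ± 0.10, was higher. At an unadjusted p under 0.05 in limma 5 were higher and 9 lower, beside 39.5% and 28.4% of all genes. The mean level of the list was 8.61 to 8.74 in bm-Mac and 7.23 to 7.42 in p-Mac. It was lower in the other groups, at 6.37 to 6.42 in DC, 6.38 to 6.41 in neo-MG, 6.24 to 6.37 in ad-MG and 6.39 to 6.435 in iPS-MG. The mast cell protease Mcpt4 stood at 0.94 ± 0.09 and passed the call, at 1.05, without p-Mac replicate 2. In the eosinophil list 4 of 7 were lower, led by the eotaxin receptor Ccr3 at -3.77 ± 0.10 and the granule protein Prg2 at -3.65 ± 0.08, and 1, Alox15, was higher. In the megakaryocyte and platelet list 5 of 8 were lower, with a median of -2.01. Ppbp, a platelet chemokine, was at 13.97, 13.93 and 13.99 in bm-Mac and 9.84, 9.34 and 9.18 in p-Mac, lower on each p-Mac array by 22.8-fold. The platelet receptor subunit Gp9 differed by -3.19 ± 0.07, while the platelet chemokine Pf4 differed by -0.14 ± 0.09 and was not called. Haematopoietic progenitor genes were lower in 4 of 13, among them Myb at -1.79 ± 0.08 and Cd34 at -1.46 ± 0.08. In bulk RNA, fewer cells of a type and less RNA per cell cannot be told apart.

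Some B cell markers were higher on the p-Mac arrays. Of 19 measured, 4 were called higher in p-Mac, where 1.73% of all genes were. At an unadjusted p under 0.05 in limma 16 were above bm-Mac and 1 below. Over all genes 39.5% passed that mark upwards and 28.4% downwards. The median of the list was 0.55, and the mean level of the list was 7.97 to 8.004 in bm-Mac and 8.59 to 8.83 in p-Mac. Ms4a1, which encodes CD20, was at 5.93, 6.09 and 6.23 in bm-Mac and 8.58, 8.63 and 7.82 in p-Mac. Cd79a, a chain of the B cell receptor, was at 6.46, 6.70 and 6.79 against 8.06, 8.99 and 8.44. Both genes were higher on every p-Mac array, whereas Cd79b and Ighm differed by 0.09 ± 0.13 and 0.10 ± 0.09. The adaptor Bank1 differed by 1.499 ± 0.16 and the IgM receptor Fcmr by 1.28 ± 0.13, which became 0.99, no longer called, without p-Mac replicate 2. In the T and NK cell list 5 of 18 genes were lower in p-Mac, led by Cd4, which macrophages can also express, at -3.01 ± 0.10, and the T cell receptor chain Cd3g differed by 0.38 ± 0.10. Mesothelial genes, which mark the lining of the cavity, were higher in 1 of 14, the retinoic acid-making enzyme Aldh1a2 at 1.33 ± 0.11, while Upk1b was at 0.74 ± 0.08. At an unadjusted p under 0.05, 13 of the 14 mesothelial genes were above bm-Mac. Their median was 0.32, beside 0.19 in the 4705 genes with levels of 7.18 to 8.42. Their mean level was 7.52 to 7.56 in bm-Mac, 7.92 to 8.01 in p-Mac and, as high as in p-Mac, 7.94 to 8.03 in ad-MG. It was 7.68 to 7.79 in DC, 7.53 to 7.59 in neo-MG and 7.49 to 7.55 in iPS-MG. Of 18 fibroblast genes 1 was lower, the collagen cross-linking enzyme Lox at -1.48 ± 0.10, near the 4.44% of all genes called lower. The median of that list was 0.097, beside 0.101 over all genes. Endothelial and mural cell genes were lower in 2 of 14 (Pecam1 at -1.44 ± 0.08 and Esam at -1.099 ± 0.08). Dendritic cell genes were higher in 1 of 19, Cd209a, and lower in 3, Kmo at -2.16 ± 0.08, Cd83 at -1.58 ± 0.13 and the integrin Itgax at -1.39 ± 0.09. No erythroid gene of 8 was called by limma, with 3 higher and 2 lower at an unadjusted p under 0.05. Car2, a carbonic anhydrase in that list, stood at -0.998 ± 0.11, and its difference was -1.04, -1.05 or -1.01 without bm-Mac replicate 3, p-Mac replicate 1 or p-Mac replicate 2, and -1.16 after a second quantile normalization, which is past the threshold. The part that other cell types play in the differences below was not tested.

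**Figure D3:**
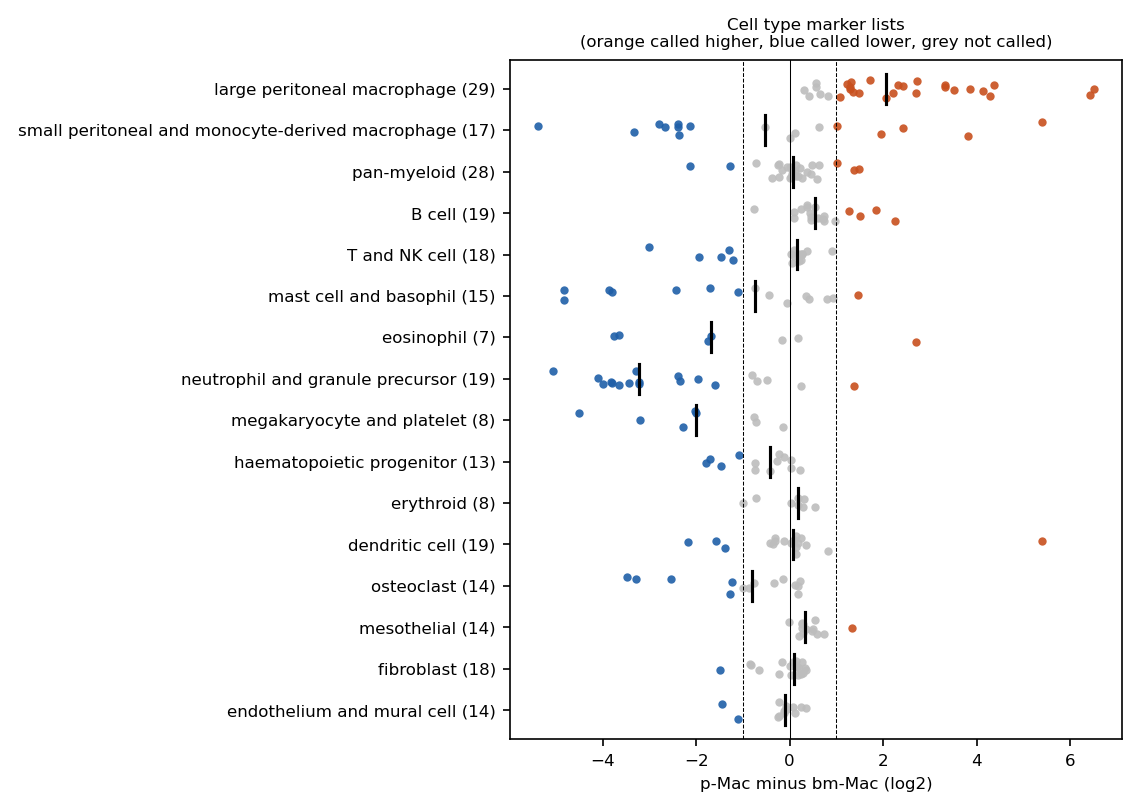
Log2 difference, p-Mac minus bm-Mac, of each measured gene in 16 lists of cell type markers, with the number of measured genes in brackets. Orange points were called higher, blue points lower and grey points neither. Black bars mark the median of a list, and dashed lines a difference of 1 either way. Large peritoneal macrophage genes lie to the right, and neutrophil, eosinophil and megakaryocyte genes mostly to the left.

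Transcription factors split the 2 kinds of cell by a few members. Of 48 listed factors, 5 were higher and 6 lower in p-Mac, beside 1.73% and 4.44% of all genes. After Gata6 the higher ones were Id3, an inhibitor of helix-loop-helix factors, at 1.84 ± 0.09, Bhlhe40, a helix-loop-helix repressor tied to macrophage self-renewal, at 1.59 ± 0.08, Klf9 at 1.07 ± 0.09 and Cebpa. With the mean of all its probesets Klf9 was at 0.71 and not called. Pparg, the nuclear receptor for fatty acids, was at 11.85, 11.92 and 12.02 in bm-Mac and 9.43, 9.73 and 9.67 in p-Mac. Spic, the factor of iron-recycling macrophages, was at 10.59, 10.18 and 10.36 against 8.72, 8.44 and 8.65. Both were lower on every p-Mac array, at -2.32 ± 0.10 and -1.77 ± 0.10, as was Nr1h3, the oxysterol receptor LXR-alpha, at -1.28 ± 0.08. The other lower factors were the interferon regulator Irf7 at -2.79 ± 0.09, Gata2, a factor of progenitors and basophils, at -1.71 ± 0.08, and Myc at -1.28 ± 0.10. Irf8, Irf4 and Maf were not called, with differences of 0.14 ± 0.07, 0.64 ± 0.09 and -0.45 ± 0.07.

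Of 19 retinoid genes, 5 were higher in p-Mac, beside 1.73% of all genes, and 1 was lower, beside 4.44%. Rarb, a retinoic acid receptor that is itself a target of retinoic acid, was at 7.04, 6.97 and 7.21 in bm-Mac and 8.42, 8.27 and 8.39 in p-Mac, and Tgm2, a transglutaminase with the same property, at 11.36, 11.18 and 11.11 against 12.48, 12.47 and 12.33. The p-Mac arrays were all higher for Rarb and Tgm2, by 1.29 ± 0.08 and 1.21 ± 0.09. The remaining higher members were Gata6, Aldh1a2 and the receptor Rxrg, at 1.04 ± 0.08, which was 0.98 without bm-Mac replicate 1 and 0.93 without p-Mac replicate 2, no longer called. Aldh1a1, another retinoic acid-making enzyme, was lower, at -1.64 ± 0.09. Of the 244 genes called higher in p-Mac with a RefSeq promoter (300 bases, 250 before to 50 after the start, build GRCm38.p6), 41 (16.8%) held the nuclear receptor half-site AGGTCA on either strand, against 16.4% of all 14739 measured genes with one. In the large peritoneal macrophage list it stood in 6 of 19 promoters (31.6%), and these shares were not tested.

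GATA motifs were counted in the same promoters. The letters AGATAA or TGATAA, on either strand, stood in 46 of the 244 promoters (18.9%) and in 17.0% of all promoters. They stood in 13.4% of those of the genes called lower and in 5 of 19 (26.3%) of the large peritoneal macrophage list. The interferon response list, whose called genes were all lower in p-Mac, held them in 8 of 24 promoters (33.3%). The 19 peritoneal promoters also held TTTGAA (31.6% against 17.3% of all promoters) and CCAAT (63.2% against 41.9%) more often. GAGGAAGT was not found there (0.0% against 3.31%), but 19 promoters are too few to show a lack of so rare a motif. A raised share in that list was thus not limited to GATA motifs and half-sites, and no share was tested. Genes to print were sought from the highest difference downwards, by a GATA match before the start. Prg4, Cxcl13, Cd209a, Tcim and Tgfb2 have larger differences than Olr1 but had no such match or no promoter. Pdk4 and Olr1, both among the 15 genes with the highest differences, show such a match close to the start and are printed with the motif in capitals, Pdk4 at chr6:5496287-5496386 (- strand) and Olr1 at chr6:129507166-129507265 (- strand), 100 bases each in build GRCm38.p6, 5′ to 3′ on the strand of the gene.
Pdk4: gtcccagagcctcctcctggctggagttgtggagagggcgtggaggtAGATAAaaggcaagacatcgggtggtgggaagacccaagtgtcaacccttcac
Olr1: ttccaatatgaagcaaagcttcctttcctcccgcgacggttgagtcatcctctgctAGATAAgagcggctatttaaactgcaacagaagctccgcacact
Pdk4, the kinase that shuts off pyruvate dehydrogenase, was at 6.77, 6.95 and 6.79 in bm-Mac and 12.17, 12.04 and 12.07 in p-Mac, and the match lies 61 bases before its start. Olr1, a receptor for oxidised lipoprotein, was at 6.60, 6.78 and 6.77 against 11.10, 11.04 and 10.98, with the match 44 bases before its start. Both genes were higher on every p-Mac array, by 38.2-fold and 20.0-fold, and the mean of Olr1 in dendritic cells was 13.05. A match describes the letters only and does not show that a factor binds there.

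TGF-beta and matrix genes leaned to p-Mac. In the TGF-beta and BMP list 7 of 26 genes were higher, beside 1.73% of all genes, and none was lower, beside 4.44%. The median was 0.30, beside 0.10 over all genes. The same shares of all genes stand beside the counts of every list below. Among the ligands Tgfb2 was 20.7-fold higher and Bmp2 was higher at 1.74 ± 0.11, while Tgfb1 and Tgfb3 differed by -0.41 ± 0.08 and -0.56 ± 0.08 and were not called. Ltbp1, which holds latent TGF-beta in the matrix, was at 9.03, 9.20 and 9.23 in bm-Mac and 11.89, 11.95 and 11.77 in p-Mac. The receptors Tgfbr1, Tgfbr3 and Bmpr1a were higher by 1.24 ± 0.09, 1.73 ± 0.08 and 1.65 ± 0.07, and the target Id3 was given above. Of 23 matrix genes, 5 were higher, namely Prg4, Ltbp1, Fn1, Ecm1 at 1.38 ± 0.09 and Emilin2 at 1.23 ± 0.13. Vwf, the platelet and endothelial adhesion protein, was the member called lower, at -2.02 ± 0.07.

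Coagulation genes were divided between both kinds. Of 24 measured, 7 were higher and 5 lower in p-Mac, beside 1.73% and 4.44% of all genes. Factors that act in thrombin generation were among the higher ones. F7, factor VII, was at 9.29, 9.32 and 9.20 in bm-Mac and 11.12, 11.46 and 11.06 in p-Mac, and F10, factor X, at 10.10, 10.31 and 10.18 against 11.997, 11.95 and 11.82. Thbd, thrombomodulin, which turns thrombin to anticoagulant use, was at 8.70, 8.605 and 8.64 against 11.13, 10.88 and 10.62. These 3 genes were higher on every p-Mac array, by 1.94 ± 0.09, 1.72 ± 0.08 and 2.23 ± 0.10, and the cofactors Pros1 and F5 were higher by 1.14 ± 0.08 and 1.08 ± 0.08. On the side of fibrinolysis, Plau, the urokinase that activates plasminogen, was at 12.66, 12.64 and 12.50 against 9.61, 9.16 and 9.46. Its difference was -3.19 ± 0.10, opposite to that of its inhibitor Serpinb2, and Anxa2, a surface anchor of plasminogen, differed by -1.93 ± 0.08. F2rl2, a thrombin receptor of platelets, was lower by 10.5-fold in p-Mac.

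Eicosanoid genes were called in both directions, 3 of 25 higher and 4 lower in p-Mac, beside 1.73% and 4.44% of all genes. Ptgis, prostacyclin synthase, was at 8.29, 8.23 and 8.42 in bm-Mac and 11.71, 11.77 and 11.52 in p-Mac. Alox15 was at 9.63, 9.71 and 9.69 against 12.36, 12.41 and 12.36. Ptges, the inducible prostaglandin E synthase, was at 8.72, 8.67 and 8.76 against 10.52, 10.97 and 10.39. All 3 were higher on every p-Mac array, by 10.2-fold, 6.47-fold and 3.75-fold. Alox12, the platelet lipoxygenase, was lower, at -3.15 ± 0.09, as were the leukotriene receptor Cysltr2 at -1.96 ± 0.10 and Hpgds, which makes prostaglandin D, at -1.49 ± 0.10. Ptgs2, the inducible cyclooxygenase, was at 8.81, 8.74 and 8.76 in bm-Mac and 9.93, 8.87 and 9.90 in p-Mac, with p-Mac replicate 2 low. It was not called at 0.80 ± 0.17, and was called, at 1.15, without p-Mac replicate 2.

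Genes induced by interferon were higher in bm-Mac almost throughout the list. Of 32 measured, 27 were lower in p-Mac, beside 4.44% of all genes, and the other 5 had differences of -0.69 to -0.91. The median of the list was -1.83. The mean level was 10.996 to 11.18 over the bm-Mac arrays and 9.02 to 9.15 over the p-Mac arrays. Among the other myeloid groups it was 10.13 to 10.18 in neo-MG, 10.12 to 10.13 in iPS-MG, 9.09 to 9.24 in ad-MG and 8.74 to 8.80 in DC. The bm-Mac arrays were the highest of the 6 groups, and p-Mac lay within the range spanned by dendritic cells and adult microglia. Ifit2, an RNA-binding antiviral protein, was at 11.59, 11.47 and 11.54 in bm-Mac and 6.99, 6.93 and 6.65 in p-Mac. Rsad2, the antiviral enzyme viperin, was at 12.28, 12.26 and 12.20 against 8.74, 8.45 and 8.40. Both were lower on every p-Mac array, by 25.6-fold and 13.1-fold. Ifit3 was at 12.79, 12.73 and 12.70 against 8.79, 8.38 and 8.08, a difference of -4.32 ± 0.14, with the caveat that mice carry a near-identical copy, so the value may belong to both. Irf7, which amplifies interferon production, was at 12.56, 12.52 and 12.33 against 9.65, 9.77 and 9.63, lower on every p-Mac array by 6.91-fold (adjusted p = 1.67e-18, limma with Benjamini-Hochberg adjustment). The least changed members were Irf9, Gbp3 and Trim30a, at -0.69 ± 0.07, -0.70 ± 0.08 and -0.71 ± 0.09.

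Promoters of the list were read for the interferon-stimulated response element, GAAA followed by GAAA with any 2 bases between, on either strand, a motif chosen after the values were seen. It stood in 16 of the 24 members with a RefSeq promoter (66.7%), against 3.91% of all 14739 promoters of the same length. Among genes called higher in p-Mac the share was 2.46%. Among those called lower, which include members of the list, it was 51 of 672 (7.59%). These shares were not tested. The windows of 4 members, picked from among those lowest in p-Mac with a match before the start, are printed with each match in capitals. They are Ifit3 at chr19:34583345-34583444 (+ strand), Rsad2 at chr12:26456518-26456617 (- strand), Ifit1 at chr19:34640749-34640848 (+ strand) and Cxcl10 at chr5:92349040-92349139 (- strand), 100 bases each from RefSeq in build GRCm38.p6, 5′ to 3′ on the strand of the gene.
Ifit3: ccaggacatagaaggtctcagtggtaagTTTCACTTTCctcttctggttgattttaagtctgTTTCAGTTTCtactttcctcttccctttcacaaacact
Rsad2: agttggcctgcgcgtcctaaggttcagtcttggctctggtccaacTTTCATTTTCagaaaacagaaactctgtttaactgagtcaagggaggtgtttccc
Ifit1: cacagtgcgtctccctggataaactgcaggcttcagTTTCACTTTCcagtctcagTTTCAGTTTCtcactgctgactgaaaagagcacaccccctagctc
Cxcl10: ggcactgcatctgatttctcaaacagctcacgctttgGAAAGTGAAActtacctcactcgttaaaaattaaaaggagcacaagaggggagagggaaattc
In capitals, TTTC at the left end of a match is the element read from the other strand. Ifit3 holds 2 matches, 156 and 122 bases before its start, and Ifit1 holds 2, at 104 and 85 bases. Rsad2 and Cxcl10 hold 1 each in the window, at 120 and 213 bases. Ifit1, another RNA-binding protein of the family, was at 11.21, 10.87 and 10.87 in bm-Mac and 7.73, 7.64 and 7.82 in p-Mac. Cxcl10, a chemokine induced by interferon, was at 11.48, 11.21 and 11.04 against 8.23, 8.06 and 8.29. Both were lower on every p-Mac array, at -3.26 ± 0.11 and -3.05 ± 0.12.

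Cell cycle genes had the lowest median difference of the 28 process lists, -1.99. Of 37 measured, 31 were lower in p-Mac, beside 4.44% of all genes. The mean level was 10.32 to 10.35 in bm-Mac and 8.25 to 8.27 in p-Mac. The p-Mac arrays were the lowest of the 6 myeloid groups, with 8.88 to 8.98 in DC, 9.62 to 9.96 in ad-MG, 10.17 to 10.21 in iPS-MG and 10.21 to 10.26 in neo-MG. In separate contrasts of the same fit, which share the p-Mac arrays, 29 of the 37 genes were lower in p-Mac than in neo-MG, 22 than in ad-MG and 10 than in DC. Top2a, the topoisomerase of dividing cells, was at 10.71, 10.77 and 10.93 in bm-Mac and 6.66, 6.45 and 6.54 in p-Mac. Ccna2, the S-phase cyclin, was at 11.29, 11.29 and 11.24 against 7.21, 7.08 and 6.94. Mki67, the proliferation antigen, was at 11.16, 11.13 and 11.19 against 8.48, 8.22 and 8.43. All 3 were lower on every p-Mac array, by 19.1-fold, 18.4-fold and 6.88-fold. Pcna, the sliding clamp of replication, was lower at -1.06 ± 0.06 (at -0.98, not called, after a second quantile normalization), as was Mcm6, a subunit of the replicative helicase, at -2.12 ± 0.09. The inhibitors Cdkn1a and Cdkn1b were not called, at -0.50 ± 0.07 and 0.12 ± 0.05, nor was E2f2 at -0.64 ± 0.07. Beside these, the haematopoietic progenitor list given above was lower in 4 of 13 genes.

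Promoters of the cell cycle list were read for the CHR, TTTGAA, and for the CCAAT box, CCAAT, both on either strand and both chosen after the values were seen. The CHR stood in 16 of 33 members with a promoter (48.5%), against 17.3% of all promoters, and the CCAAT box in 27 (81.8%), against 41.9%. Among the genes called lower in p-Mac, which include members of the list, the shares were 24.4% and 47.3%. None of these shares was tested. Matches of different motifs were counted separately and may overlap. The windows printed were picked from among the members lowest in p-Mac with a CHR match before the start. The 3 windows below show CHR matches in capitals close to the start, in Top2a at chr11:99024190-99024289 (- strand), Kif11 at chr19:37376282-37376381 (+ strand) and Cdk1 at chr10:69352913-69353012 (- strand), 100 bases each from RefSeq in build GRCm38.p6, 5′ to 3′ on the strand of the gene.
Top2a: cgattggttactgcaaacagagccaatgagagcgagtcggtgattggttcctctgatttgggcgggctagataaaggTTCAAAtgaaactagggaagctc
Kif11: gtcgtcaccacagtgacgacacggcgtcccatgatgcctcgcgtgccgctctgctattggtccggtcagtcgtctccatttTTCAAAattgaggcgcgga
Cdk1: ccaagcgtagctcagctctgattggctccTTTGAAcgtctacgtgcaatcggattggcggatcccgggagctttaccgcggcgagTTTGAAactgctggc
The match lies 23 bases before the start of Top2a and 19 before that of Kif11, and Cdk1 holds 2, at 71 and 15 bases. Kif11, the kinesin that builds the bipolar spindle, was at 10.46, 10.52 and 10.64 in bm-Mac and 6.62, 6.67 and 6.76 in p-Mac. Cdk1, the kinase that drives mitosis, was at 11.63, 11.65 and 11.78 against 7.97, 8.12 and 8.37. Both were lower on every p-Mac array, at -3.86 ± 0.10 and -3.53 ± 0.09.

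**Figure D4:**
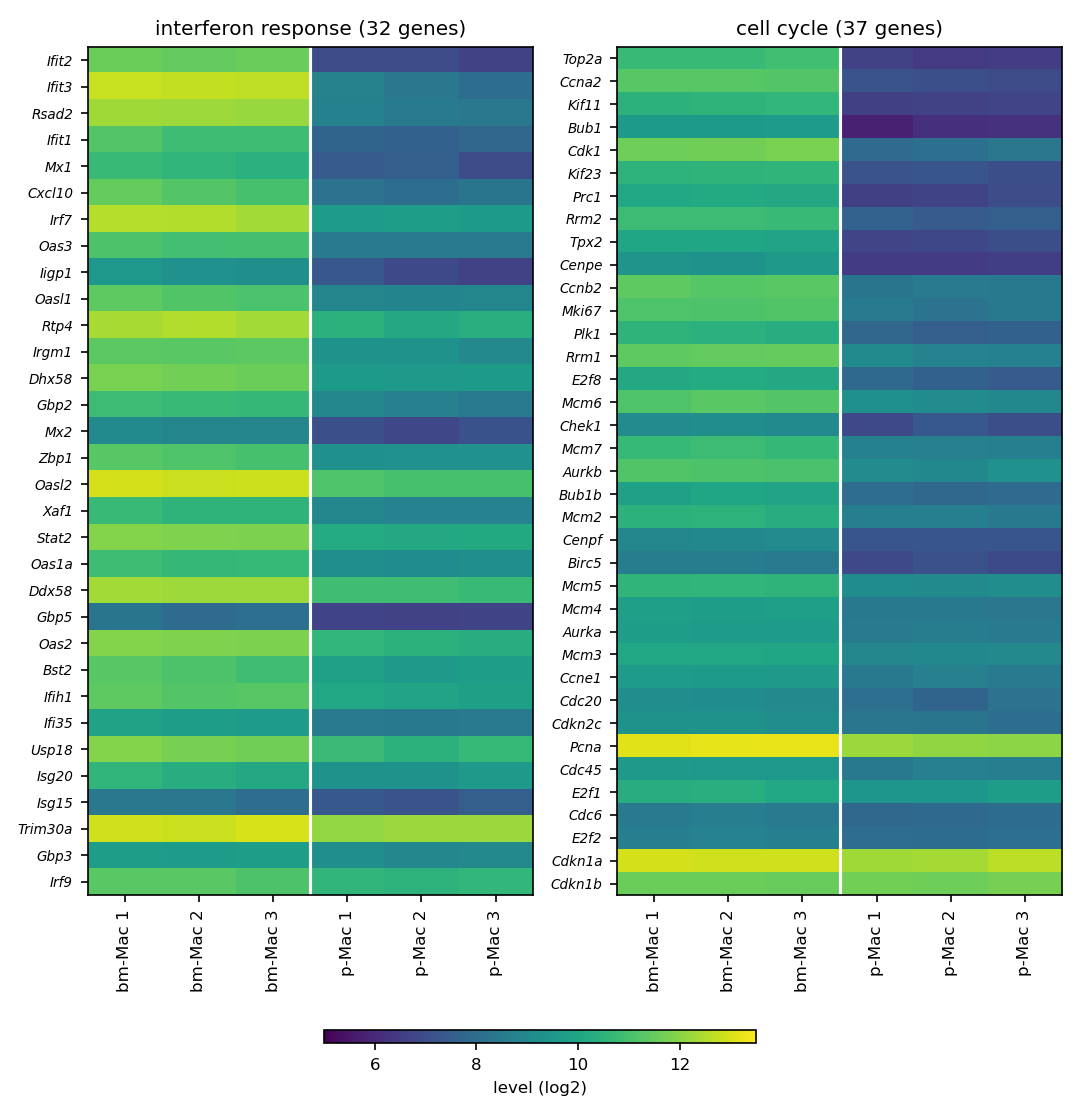
Log2 level of each measured gene of the interferon response list (left, 32 genes) and the cell cycle list (right, 37 genes) on the 6 arrays, with genes ordered by their difference. Colours are to be read along a row, since probes of different genes are not on one scale. The 3 bm-Mac columns are brighter than the 3 p-Mac columns in nearly every row, Cdkn1b at the foot of the right panel being an exception.

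Chemokines separated the 2 kinds of cell in both directions. Of 27 ligands, 4 were higher and 10 lower in p-Mac, beside 1.73% and 4.44% of all genes. Beside Cxcl13 and Ccl24, Cxcl14 was higher at 2.17 ± 0.13. Ccl5, which attracts T cells and monocytes, was at 12.99, 12.88 and 12.82 in bm-Mac and 9.10, 9.04 and 8.95 in p-Mac, and Ccl8, a monocyte chemoattractant, at 10.19, 9.91 and 9.71 against 6.56, 6.74 and 6.93. Both were lower on every p-Mac array, by 14.6-fold and 9.16-fold, and the Ccr2 ligands Ccl2 and Ccl7 were lower, at -1.94 ± 0.07 and -2.60 ± 0.12. Among 22 receptors, 4 were higher and 3 lower. The higher ones were Ccrl2, which presents chemerin, at 1.66 ± 0.09, the inflammatory chemokine receptor Ccr1 at 1.54 ± 0.10, the sphingosine phosphate receptor S1pr1 at 1.35 ± 0.08 and Cxcr4 at 1.01 ± 0.12. Cxcr4 lay on the threshold, at 0.95 without bm-Mac replicate 3 and 0.98 without p-Mac replicate 1, and was then not called. Ccr2, Ccr3 and Cxcr2 were the lower ones.

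Receptors for uptake moved member by member. Of 36 scavenger and lectin receptors, 5 were higher (Olr1, Cd209b, Marco, Cd33 and Colec12) and 8 lower, beside 1.73% and 4.44% of all genes. Cd209b, a lectin that binds bacterial capsules, was at 6.70, 6.69 and 6.86 in bm-Mac and 10.48, 9.39 and 10.53 in p-Mac. All p-Mac arrays were higher, although replicate 2 was lower than the other two, and Cd209a and Cd209b belong to a cluster of close copies whose signals may be shared. In the list of apoptotic cell uptake 3 of 24 were higher, Timd4, Tgm2 and the bridging protein Pros1. Lower were 5, among them the integrin subunit Itgb3 at -3.49 ± 0.10, Anxa1 at -2.49 ± 0.09 and the bridging protein Mfge8 at -1.86 ± 0.07. Mertk, the uptake receptor to which Pros1 binds, was not called, at 0.63 ± 0.06. Of 12 Fc receptors, 4 were lower, namely Fcer1a at -3.80 ± 0.10, Fcgr1, Fcgr4 at -1.81 ± 0.12 and Fcrls at -1.12 ± 0.08 (-0.96, not called, after a second quantile normalization), and 1, Fcmr, was higher (0 without p-Mac replicate 2). Fcgr2b and Fcgr3, the inhibitory and the low-affinity activating receptor for IgG, differed by 0.49 ± 0.08 and 0.37 ± 0.07 and were not called. Among 19 complement genes, 3 were higher (Vsig4, factor B gene Cfb at 1.42 ± 0.10 and C1qa at 1.07 ± 0.13) and 3 lower (the inhibitor Serping1 at -1.59 ± 0.11, Itgax and Cd55 at -1.06 ± 0.13, which was -0.93 and not called without p-Mac replicate 3).

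Sensing and signalling genes were called in each of the lists that follow, beside 6.17% of all genes. Of 24 Toll-like receptor genes, 3 were lower in p-Mac, Tlr9 at -1.68 ± 0.13, Tlr1 at -1.28 ± 0.09 and Tlr5 at -1.04 ± 0.08, the last being -0.99 without p-Mac replicate 2. Of 30 inflammatory genes, 5 were higher and 3 lower. Tnfsf13b, the B cell survival factor BAFF, was at 8.09, 8.23 and 8.15 in bm-Mac and 10.12, 9.87 and 10.07 in p-Mac, higher on every p-Mac array by 1.86 ± 0.08. The cytokine Osm was higher by 1.67 ± 0.11 and Naip6, a sensor of bacterial proteins from a cluster of close copies, by 1.60 ± 0.10. Il1rn, the interleukin-1 receptor antagonist, was at 12.39, 12.35 and 12.26 against 9.82, 9.84 and 9.97, lower on every p-Mac array, and Tnf differed by -1.37 ± 0.08. The protease Casp1 was the remaining lower gene, at -1.07 ± 0.10, and was -0.95, not called, without p-Mac replicate 2. In the MHC class II list of 13 genes 1 was higher, the costimulator Cd86 at 1.202 ± 0.07, while H2-Aa and Cd74 differed by -0.23 ± 0.09 and -0.16 ± 0.12. H2-Ob, which tunes peptide loading, stood at 0.97 ± 0.13 and passed the call without p-Mac replicate 1, at 1.05, or without p-Mac replicate 3, at 1.15. Growth factor receptors and their feedback genes were higher in 4 of 24, Csf3r, the cytokine signal inhibitor Socs3 at 1.35 ± 0.07 (0.89, not called, with the mean of all its probesets), Tgfbr1 and the receptor chain Il13ra1 at 1.197 ± 0.09. Dusp6, a phosphatase induced by growth factor signalling, stood at -0.98 ± 0.08 and passed the call without bm-Mac replicate 3, p-Mac replicate 1 or p-Mac replicate 3, at -1.02, -1.003 or -1.01.

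Iron handling held one of the largest differences. Slc40a1, ferroportin, the exporter of iron from macrophages, was at 12.73, 12.67 and 12.71 in bm-Mac and 7.93, 7.77 and 7.90 in p-Mac. The p-Mac arrays were all lower, by 28.6-fold (adjusted p = 7.3e-23, limma with Benjamini-Hochberg adjustment), and of the other myeloid groups dendritic cells had the lowest mean, 8.12, and neo-MG the highest, 12.66. Lcn2, which binds bacterial iron carriers and is also a neutrophil granule gene, was at 13.32, 13.31 and 13.38 against 9.20, 9.07 and 9.42. Tfrc, the transferrin receptor, was at 12.24, 12.28 and 12.39 against 10.39, 10.08 and 10.38. Both were lower on every p-Mac array, so that with Spic 4 of 22 iron genes were lower, beside 4.44% of all genes. The haemoglobin-binding protein gene Hp was the 1 higher, at 1.97 ± 0.12, beside 1.73% of all genes.

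Lipid genes differed by pathway. In the cholesterol and fatty acid synthesis list 6 of 24 were higher, beside 1.73% of all genes, with a median of 0.56. They were led by Insig1, which retains the sterol-sensing complex, at 1.61 ± 0.08. The isomerase Idi1 at 1.33 ± 0.11 and squalene synthase gene Fdft1 at 1.17 ± 0.07 came next. In the list of lipid uptake, storage and efflux 4 of 23 were lower, beside 4.44% of all genes. Abcg1, a cholesterol exporter and target of the oxysterol receptors, was at 12.44, 12.34 and 12.30 in bm-Mac and 10.05, 10.04 and 10.06 in p-Mac, lower on every p-Mac array, at -2.31 ± 0.07. The others were Lpl, lipoprotein lipase, at -1.52 ± 0.07, Pparg and Nr1h3, while Apoc2 and Fabp4 were not called at 0.78 ± 0.09 and 0.82 ± 0.09.

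Energy metabolism gave smaller differences, and all 26 respiratory chain genes had differences below 0. Of these, 3 were called lower in p-Mac, with a median of -0.56 beside -0.16 in the 4705 genes with the highest levels. They were Cox5a at -1.73 ± 0.08, Ndufa4 at -1.47 ± 0.10 and Cox7a2 at -1.27 ± 0.13, which was -0.99 and not called without p-Mac replicate 3. The smallest difference, of Ndufv1 at -0.26 ± 0.06, was -0.03 after a second quantile normalization. Of 26 glycolysis and hypoxia genes, 2 were higher, the prolyl hydroxylase Egln3 at 1.98 ± 0.08 and the aldolase Aldoc at 1.75 ± 0.07, and 4 lower, among them Ndrg1 at -1.69 ± 0.08, the hexokinase Hk3 at -1.31 ± 0.09 and the phosphofructokinase Pfkp at -1.31 ± 0.08. Another phosphofructokinase, Pfkl, was not called at 0.93 ± 0.08, and was at 1.02 without p-Mac replicate 3. None of 22 phagocyte oxidase and antioxidant genes was called by limma, with 7 higher and 5 lower at an unadjusted p under 0.05. The cystine transporter Slc7a11 was nearest, at 0.98 ± 0.09, and passed the call at 1.01 without bm-Mac replicate 2 and at 1.08 without p-Mac replicate 3, and at 1.16 after a second quantile normalization.

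Most called adhesion molecules and proteases were lower in p-Mac. Vcam1, the ligand of the integrin VLA-4, was at 12.22, 12.32 and 12.33 in bm-Mac and 7.89, 7.83 and 7.88 in p-Mac. The p-Mac arrays were all lower, at -4.43 ± 0.06, and the adjusted p of 1.3e-26 (limma, Benjamini-Hochberg) was the lowest of all genes tested. Of 32 integrin and adhesion genes, 9 were lower, among them Itgb3 and the collagen-binding subunit Itga2 at -1.89 ± 0.09, and 1, the junction protein Jam2, was higher at 2.12 ± 0.08. Of 31 protease and inhibitor genes, 10 were lower and 2 higher, beside 4.44% and 1.73% of all genes. Mmp9, a gelatinase stored in neutrophils and made by osteoclasts, was at 12.67, 12.65 and 12.67 against 9.52, 9.35 and 9.24, lower on every p-Mac array, and the inhibitor Timp3 differed by -2.42 ± 0.07. The higher ones were Serpinb2 and the elastase inhibitor Slpi, at 2.16 ± 0.08. Osteoclast genes were lower in 5 of 14, with Itgb3, Mmp9 and the fusion receptor Dcstamp at -2.53 ± 0.12 in front, while Calcr and Nfatc1 differed by 0.19 ± 0.11 and 0.23 ± 0.07.

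**Figure D5:**
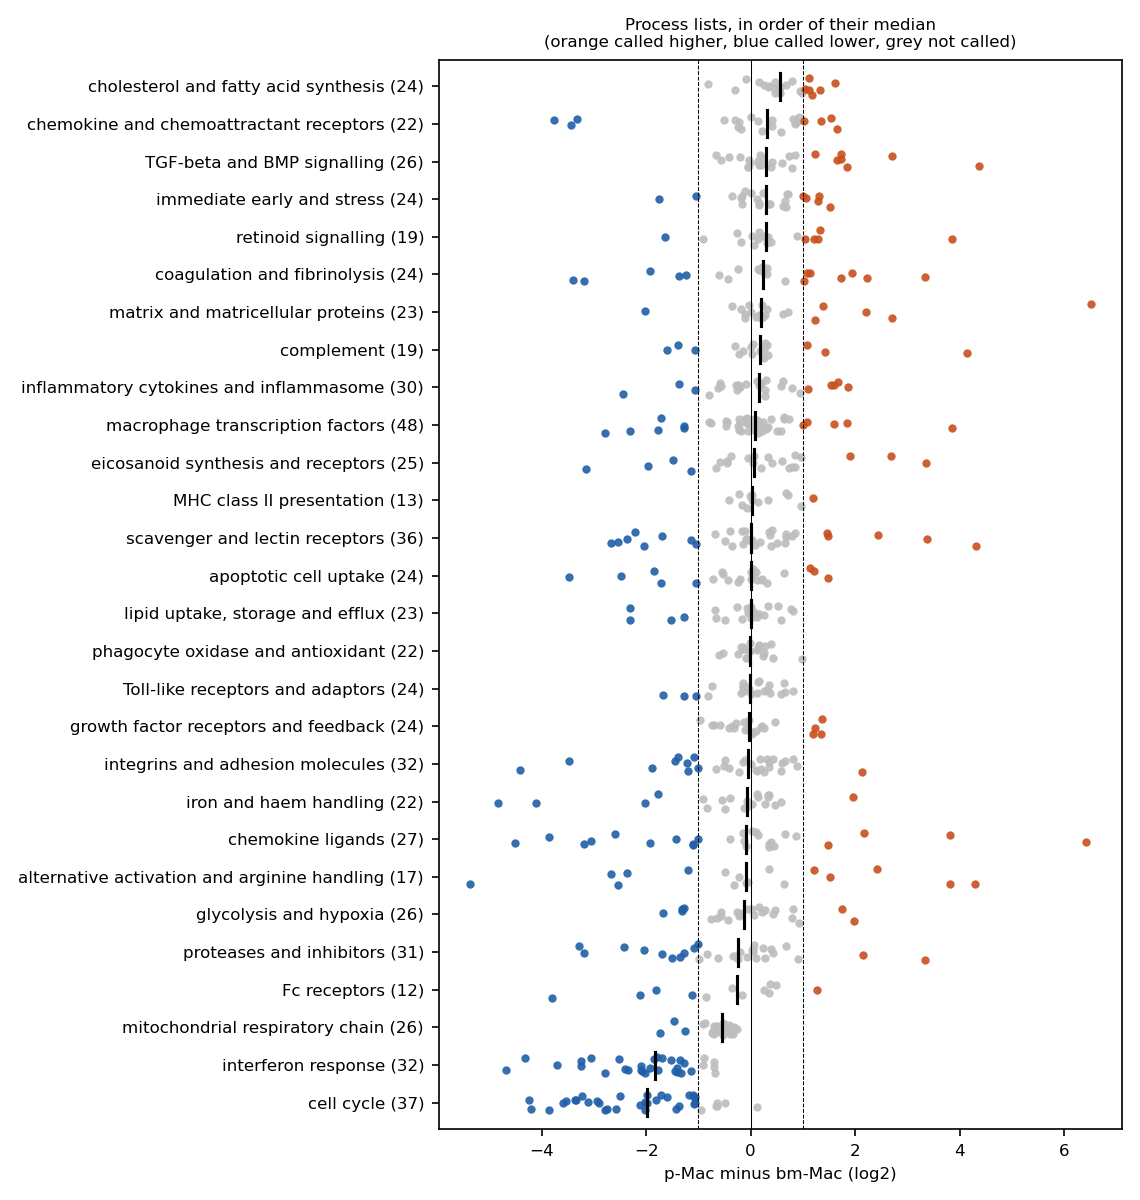
Log2 difference, p-Mac minus bm-Mac, of each measured gene in 28 process lists, ordered by their median (black bars), with the number of measured genes in brackets. Orange points were called higher, blue points lower and grey points neither. Most medians lie near 0, and the lists at the foot, cell cycle and interferon response, have medians of -1.99 and -1.83.

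Genes that set one kind of macrophage apart from all other myeloid groups were fewer. A call above bm-Mac, DC, neo-MG, ad-MG and iPS-MG at once was made in p-Mac for 112 genes (0.595% of those tested), and above p-Mac and the same 4 groups in bm-Mac for 147 (0.781%). The contrasts behind each count share the arrays of that macrophage. By the smallest of the 5 differences, p-Mac was led by Prg4, Pdk4, Vsig4, Cxcl13 and Cd209a, followed by St8sia6, a sialyltransferase, Cd209b, the tight junction protein Ocln, Lyz1 and C4a. St8sia6 was at 7.33, 7.28 and 7.42 in bm-Mac and 10.60, 10.64 and 10.46 in p-Mac, and no other group had a mean above 7.29. Ocln was at 6.39, 6.35 and 6.495 against 9.89, 9.65 and 9.73, with other groups at 6.47 to 6.81. For both genes the p-Mac arrays alone were high. C4a is annotated as a transcribed pseudogene with a near-identical neighbour, C4b, so its difference of 2.84 ± 0.13 is uncertain. In bm-Mac the leading genes were Ngp, Ms4a2, Mcpt8, Ppbp, Ltf, Mmrn1, Prss34, Mpo, S100a9 and Fcer1a. Of these, Mmrn1, a platelet and endothelial protein, was at 9.68, 9.64 and 9.76 in bm-Mac and 5.58, 5.89 and 5.85 in p-Mac. Apart from Mmrn1 all of these stand in the neutrophil, basophil or megakaryocyte lists above.

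Several genes among the 15 highest and 15 lowest remain to be described. Nt5e, the surface enzyme that makes adenosine, was at 7.69, 7.69 and 7.85 in bm-Mac and 11.22, 11.17 and 11.15 in p-Mac. Cav1, the coat protein of caveolae, was at 7.67, 7.53 and 7.49 against 11.23, 11.28 and 11.32. Car6, a carbonic anhydrase of the large peritoneal list, was at 7.30, 7.15 and 7.004 against 10.70, 10.69 and 10.62. All 3 were higher on every p-Mac array, and Car6 was higher still in dendritic cells, at 12.36. Ms4a8a and Tcim were also higher, by 3.72 ± 0.08 and 4.64 ± 0.13. Adgrl2, an adhesion G protein-coupled receptor, was at 11.38, 11.26 and 11.34 in bm-Mac and 7.02, 6.45 and 6.94 in p-Mac, while the 4 other myeloid groups had means of 11.65 to 12.25. For this gene the p-Mac arrays alone were low. Ms4a6b, of a family of close copies, was lower in p-Mac, at -4.36 ± 0.13.

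Distances between group means put each macrophage kind in context. The root mean square log2 difference over all genes was 0.580 between p-Mac and bm-Mac. From p-Mac it was 0.674 to neo-MG, 0.675 to iPS-MG, 0.717 to DC and 0.754 to ad-MG. From bm-Mac it was 0.529 to neo-MG and 0.531 to iPS-MG, shorter than to p-Mac, and 0.662 to DC and 0.710 to ad-MG. All distances rest on the deposited values, in which the p-Mac arrays were packed more closely than the others. The effect of that packing on the distances was not tested, so their order may depend on the scaling.

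The p-Mac arrays varied more among themselves. The median SD per gene was 0.101 in p-Mac and 0.0714 in bm-Mac, and 22 and 5 genes had an SD above 0.5. Among the 5 genes with the largest SD in p-Mac were the small RNAs Snord118, Rnu12 and Rnu3a, with SDs of 2.00, 1.47 and 0.949. Il1b, interleukin-1 beta, was at 10.52, 10.37 and 10.27 in bm-Mac and 10.88, 9.03 and 10.53 in p-Mac. The groups overlapped, with p-Mac replicate 2 below the other arrays of its kind, and the difference of -0.24 ± 0.25 was not called. Immediate early and stress genes, which can respond within minutes to handling, were higher in 5 of 24 and lower in 2. Over all genes 1.73% were called higher and 4.44% lower. Egr1 was at 10.47, 10.41 and 10.33 in bm-Mac and 12.06, 11.78 and 11.91 in p-Mac, Ier3 at 10.41, 10.43 and 10.18 against 11.71, 11.52 and 11.72, and Btg2 at 11.18, 11.15 and 11.03 against 12.60, 12.22 and 12.41. All 3 were higher on every p-Mac array, but without p-Mac replicate 1 the count of higher genes in the list was 3. The lower genes were Gadd45b at -1.76 ± 0.08 and the chaperone Hsph1 at -1.05 ± 0.07, the latter -0.998 and not called without p-Mac replicate 3. The part of cell handling in the differences was not tested.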

How the data were processed

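Total RNA of each sample was profiled on the Affymetrix GeneChip Mouse Gene 1.0 ST array from 200 ng of RNA, per the labels' protocols. The authors deposited log2 values for 35556 probesets on 24 arrays (8 groups of 3), from 3.14 to 14.4, made with RMA and Partek 2 per the submitters' processing notes; the role of each tool and the chip definition are not given in the sources used here. Of the probesets, 21218 named 1 gene, 1881 several and 12457 none, in the platform's annotation; the single-gene probeset with the highest mean was kept, which gave 18820 genes. No detection calls were used, so no level could be called absent, and the number of arrays limits the precision.

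From these values limma 3.58.1 (lmFit, contrasts.fit and eBayes, R 4.3.3) was fitted to all 24 arrays, with Benjamini-Hochberg adjustment over all genes. An exact permutation test of 3 arrays against 3 could not go below p = 0.1, so none was used for single genes. Replicate numbers 1 to 3 are shared between groups. The deviations of same-numbered p-Mac and bm-Mac arrays from their group means correlated at 0.00168, -0.0419 and -0.0651 across genes. The numbers were not taken as pairs, although correlations from so few arrays cannot exclude pairing. Scripts were tested on simulated data.

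The members, the 45 gene lists (843 of 914 listed genes measured, matched by exact symbol; the others are not analysed here) and the tests were chosen with earlier results of these data known. Lists overlap, and each is described by its counts and its median, with no test. Named genes were, by rule, of called protein-coding genes without overlap the 15 furthest above and the 15 furthest below bm-Mac, from each list the 3 members at either end, the 10 leading genes above all 5 other myeloid groups on either side, the 5 genes with the largest SD in each kind, and a set of macrophage genes. Bmp2, Bmpr1a, Ccl2, Ccl7, Cdk1, Colec12, Cxcl10, Cxcr4, Ecm1, Emilin2, F10, F5, Fcrls, Ifit1, Il13ra1, Klf9, Laptm4b, Lyz2, Mcm6, Mertk, Myc, Pcna, Ptgs2, Rxrg, Selp and Tgfbr3 were named outside this rule, after their values were seen. Promoters were RefSeq's in build GRCm38.p6, found for 14739 genes; besides the motifs printed, GAGGAAGT, a PU.1-type ETS site, stood in 3.31% of all promoters, 4.10% of those of genes called higher, 4.46% of those called lower and 5 of 17 (29.4%) in the neutrophil list, not tested. Alternatives were the arrays in the fit, the replicate block, the scaling, a filter on low values, the probeset of a gene, the variance model, array weights, the call rule and leaving out each array.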

Additional observations from a re-analysis of the deposited data

How the results depend on the processing

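The counts of called genes followed the call rule most. With no minimum difference, 12086 genes passed the adjusted p, 6888 higher and 5198 lower in p-Mac, and 3851 genes were above all 5 other myeloid groups in p-Mac and 1125 in bm-Mac. Tested against a difference of 1 as the bound (limma's treat), 748 genes were called, 203 higher and 545 lower, and 63 stood above all 5 groups in p-Mac. Leaving out each array in turn gave 1143 to 1199 called genes, 320 to 343 higher and 810 to 867 lower, with 110 to 112 above all groups in p-Mac and 143 to 152 in bm-Mac. The second quantile normalization called 402 genes higher and 759 lower, of which 1031 calls were shared with the 1162. Whether replicate numbers pair the samples is not known. With the replicate block 1162 genes were called, 326 higher and 836 lower, the same genes. This count cannot decide on pairing, since a difference of at least 1 always passed the adjusted p. Of 298 named genes, 180 of them called, none that was called reversed its direction under the 16 alternatives other than the call rules, 13 lost the call under at least 1 and 14 gained it. In all, 12 of the 90 list counts (higher and lower in 45 lists) moved by over 1.5 times under at least 1 of these alternatives, each from a count of 5 or fewer. Under the second quantile normalization 8 of them moved, to 5 higher eicosanoid genes in place of 3, 4 higher glycolysis genes in place of 2, 2 higher in place of 1 in the dendritic cell, adhesion and MHC class II lists, 1 lower erythroid and 1 higher phagocyte oxidase gene in place of 0, and 1 lower immediate early gene in place of 2. With the filter on low values 0 mast cell genes were higher in place of 1, and with array weights 3 immediate early genes in place of 5. With the probeset chosen over the macrophage arrays 2 calls, of genes not named here, changed direction. List medians moved by more than the spread between replicates in 26 of the 45 lists under the second quantile normalization, among them cholesterol synthesis (0.56 to 0.75) and the respiratory chain (-0.56 to -0.38), and in 23 of 270 cases when arrays were left out, so medians near 0 give no direction. Under that normalization Casp1, Fcrls, Hsph1, Pcna, Rxrg and Tlr5 lost the call, and with the mean of all probesets Klf9 and Socs3 did.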
